A study of Mus musculus with 18 samples.

Results

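The collagen genes described here are the protein-coding genes on mouse autosomes whose symbol is Col, a number, a and a number in the GENCODE vM21 annotation of the mm10 genome. The rule reads the symbol and no measured value, and 42 of the 20807 autosomal protein-coding genes were members. The 2 collagen genes on the X chromosome (Col4a5 and Col4a6) were outside the rule. The histone marks H3K27me3 and H3K27ac were read at each of them in bone marrow-derived macrophages (BMDM), which are macrophages grown for 7 days from mouse bone marrow, left untreated here. The comparisons ask how the genotype of the mouse, with or without the dystrophin mutation and with or without the innate immune receptor TLR4, goes together with the repressive mark (H3K27me3) and the activating mark (H3K27ac) at genes of fibrosis.

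BMDM came from male mice of 3 genotypes. WT cells were from C57BL6 mice. The mdx cells were from mice labelled Dmdmdx-4Cv, which carry the mdx-4Cv mutation of the dystrophin gene and are a model of Duchenne muscular dystrophy, in which muscle is gradually replaced by collagen-rich scar. The mdxTLR4-/- cells were from mdx mice that also lack TLR4, and their strain is labelled Bl6/Bl10, so that this genotype differed from the other groups in the labelled background as well as in TLR4. The study's methods place the WT, mdx and TLR4-/- mice on the C57BL/6J background and give none separately for mdxTLR4-/-. There were 18 libraries. H3K27me3 had 2 ChIP and 2 input libraries per genotype. H3K27ac had 2 ChIP libraries each in WT and mdx but only 1 in mdxTLR4-/-, with 1 input library labelled C57BL6 and no genotype in its name. The labelled mouse age went up by 1 week from library to library, from 12 and 13 weeks in the WT H3K27me3 ChIP libraries to 14 and 15 weeks in mdx and 16 and 17 weeks in mdxTLR4-/-, and from 19 and 20 weeks to 21 and 22 weeks and 23 weeks for H3K27ac. Input libraries were labelled 6 to 11 weeks (H3K27me3) and 18 weeks (H3K27ac). The ages thus run as an unbroken series over the libraries, and whether they are the true ages of the mice cannot be told from the labels. Genotype, labelled age and library order cannot be told apart.

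Replicates were merged by the authors before peaks were called, so each mark had 1 list of peaks per genotype and no spread between replicates. No difference between genotypes could therefore be tested, no p-value is given, and the 95% intervals on read counts (exact Poisson) cover counting error only. The H3K27me3 lists held 28143 peaks with 8331331 reads in WT, 41780 peaks with 10199918 reads in mdx and 36488 peaks with 7358418 reads in mdxTLR4-/-. The H3K27ac lists were much thinner, with 15665 peaks and 274020 reads in WT, 12076 peaks and 191629 reads in mdx, and 12493 peaks and 168487 reads in mdxTLR4-/-. The median H3K27ac peak held 10, 10 and 8 reads in that order, so a weak H3K27ac site may be missing from any list at this depth.

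Collagens are the main structural proteins of connective tissue. Their chains wind around each other into a helix that assembles into fibrils, networks or filaments, and fibroblasts and other mesenchymal cells make most of them, while macrophages mainly clear collagen and signal to the cells that make it. H3K27me3 is laid down by the Polycomb methyltransferase Ezh2 and its partners and often covers genes of other cell lineages in broad domains. H3K27ac sits on the same lysine at active promoters and enhancers, so a given histone tail cannot carry both.

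Collagen genes carried H3K27me3 at a higher share than all genes tested, and they did so in all 3 genotypes. Coverage is the share of a window, from 5 kb upstream of the gene to 1 kb past its end, that lay under H3K27me3 peaks. At least 50% of the window was covered for 17 of 42 collagen genes in WT (17.5% of all genes tested), 17 of 42 in mdx (17.1%) and 16 of 42 in mdxTLR4-/- (15.6%). Any H3K27me3 in the window was found for 35 genes in WT (40.1% of all genes), 36 in mdx (42.9%) and 34 in mdxTLR4-/- (40.5%). A peak lay over the gene start itself for 30 genes in WT (24.5% of all genes), 30 in mdx (24.7%) and 29 in mdxTLR4-/- (23.6%). The median collagen gene was covered to 34.6%, 35.4% and 21.6%, whereas the median of all genes was 0 in each list. Collagen windows were long (median 117 kb against 23.6 kb for all genes), and among the 15050 genes with windows between the shortest and the longest collagen window (themselves shorter, at a median of 33.9 kb) 15.7% reached 50% in WT, 15.6% in mdx and 14.1% in mdxTLR4-/-.

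Members differed widely from each other. At least 50% of the window was covered in all 3 lists for 16 genes, 18 genes stayed below 20% in all 3 lists, 6 of them with no H3K27me3 peak in any list, and 8 genes lay between. Col6a3 in WT (55.9%) and Col18a1 in mdx (61.6%) were the only other values at or above 50%. The plot of coverage by gene shows that high and low genes occurred within the same collagen class.

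**Figure D1:**
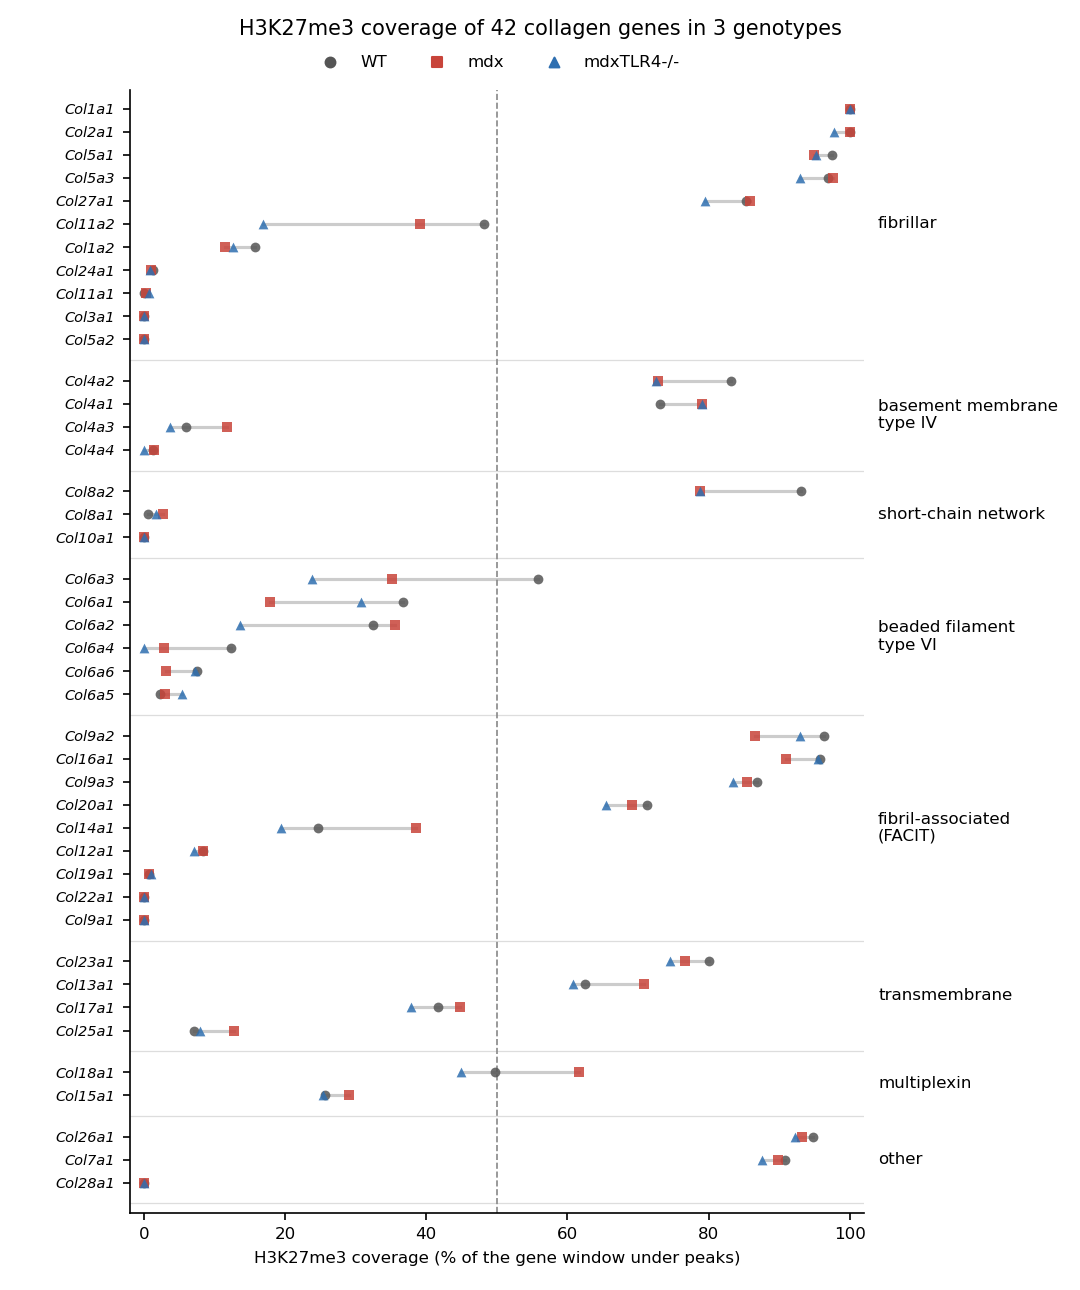
H3K27me3 coverage (percent of the window under peaks) of each of the 42 collagen genes, grouped by class, with 1 point per genotype, a grey line from the lowest to the highest genotype and a dashed line at 50%. In 16 genes all 3 points lie at or above 50%, and Col6a3 and Col11a2 have the widest gaps between genotypes.

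Sequence just upstream of the start is shown for 6 genes of high, intermediate and no coverage, because the density of CG dinucleotides there differed strongly between them. Each run is the 250 bases before the RefSeq start on the strand of the gene, from the RefSeq annotation of GRCm38.p6 (the same chromosome sequences as mm10), written 5′ to 3′, with every CG and every TATAAA (or its reverse complement TTTATA) in capitals. Col5a1 (chr2:27886175-27886424, plus strand) and Col8a2 (chr4:126286544-126286793, plus strand) lay inside broad H3K27me3 domains in all 3 genotypes. Col1a2 (chr6:4505368-4505617, plus strand, 804 bp into the GENCODE gene) had H3K27me3 around the start and on little of the body. Col6a3 (chr1:90843972-90844221, minus strand) was the member whose coverage differed most between genotypes. Col3a1 (chr1:45311288-45311537, plus strand) and Col10a1 (chr10:34389731-34389980, plus strand) had no H3K27me3 peak in any list.
Col5a1: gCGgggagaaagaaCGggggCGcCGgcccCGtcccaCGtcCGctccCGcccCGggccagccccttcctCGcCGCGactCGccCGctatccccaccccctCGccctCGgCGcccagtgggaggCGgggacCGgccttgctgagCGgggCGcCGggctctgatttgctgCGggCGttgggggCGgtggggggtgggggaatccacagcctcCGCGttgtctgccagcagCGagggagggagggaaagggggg
Col8a2: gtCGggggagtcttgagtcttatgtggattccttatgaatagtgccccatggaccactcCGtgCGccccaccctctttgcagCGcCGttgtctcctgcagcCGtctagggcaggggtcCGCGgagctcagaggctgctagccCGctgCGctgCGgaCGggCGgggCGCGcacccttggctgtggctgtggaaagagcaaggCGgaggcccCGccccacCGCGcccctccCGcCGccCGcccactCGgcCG
Col1a2: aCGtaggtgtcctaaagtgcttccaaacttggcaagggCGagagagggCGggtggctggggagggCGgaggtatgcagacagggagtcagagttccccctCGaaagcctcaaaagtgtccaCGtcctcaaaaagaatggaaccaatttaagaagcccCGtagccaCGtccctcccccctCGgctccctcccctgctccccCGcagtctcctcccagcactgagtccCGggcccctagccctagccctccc
Col6a3: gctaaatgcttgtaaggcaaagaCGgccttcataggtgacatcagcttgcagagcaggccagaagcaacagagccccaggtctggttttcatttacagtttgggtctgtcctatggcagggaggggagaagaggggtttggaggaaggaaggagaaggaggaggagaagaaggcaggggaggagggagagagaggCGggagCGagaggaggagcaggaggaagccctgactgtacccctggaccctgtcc
Col3a1: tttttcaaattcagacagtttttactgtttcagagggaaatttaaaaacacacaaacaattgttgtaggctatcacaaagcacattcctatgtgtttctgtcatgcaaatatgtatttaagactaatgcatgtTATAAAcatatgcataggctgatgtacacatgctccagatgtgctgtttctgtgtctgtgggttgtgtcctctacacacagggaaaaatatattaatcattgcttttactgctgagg
Col10a1: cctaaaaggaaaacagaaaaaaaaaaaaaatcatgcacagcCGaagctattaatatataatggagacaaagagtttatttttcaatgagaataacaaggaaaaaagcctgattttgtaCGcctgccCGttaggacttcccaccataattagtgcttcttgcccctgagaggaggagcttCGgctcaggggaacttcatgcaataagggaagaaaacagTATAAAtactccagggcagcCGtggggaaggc
The number of CG dinucleotides in these runs was 28 at Col5a1, 24 at Col8a2, 11 at Col1a2, 3 at Col6a3, 0 at Col3a1 and 5 at Col10a1. TATAAA was present in the runs of Col3a1 and Col10a1, which were unmarked, and in none of the other 4, but the other members with it (Col11a2, Col13a1 and Col17a1) had H3K27me3 over the start in all 3 lists.

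The fibrillar collagens, which build the rope-like fibrils of skin, bone, cartilage and scar, held both extremes. Col1a1, which encodes the main chain of type I collagen and lies at chr11:94936224-94953042, was covered to 100% in WT, mdx and mdxTLR4-/-. Col2a1, the fibrillar collagen of cartilage, was covered to 100%, 100% and 97.7%. Col5a1, whose type V chain sits in the core of type I fibrils, was covered to 97.5%, 95.0% and 95.2%, and Col5a3 to 96.9%, 97.6% and 92.9%. Col27a1, another cartilage collagen, was covered to 85.4%, 85.8% and 79.5%. These 5 genes were covered to at least 79.5% in every list.

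The partner chains of these same fibrils looked different. Col1a2, which pairs with Col1a1 in type I collagen, was covered to 15.8% in WT, 11.6% in mdx and 12.6% in mdxTLR4-/-. A peak lay over the start in each list, 6.6 kb long with 175 reads in WT, 4.8 kb with 172 reads in mdx and 5.4 kb with 128 reads in mdxTLR4-/-, and a second one reached the end of the window in WT (4.4 kb, 87 reads) and mdx (6.2 kb, 150 reads). Col3a1, the type III collagen of early scar, and Col5a2, the partner of Col5a1, had no H3K27me3 peak in any list. Col24a1 was covered to 1.28%, 0.979% and 0.828%, all of it in 1 peak over the start of 3.4, 2.6 and 2.2 kb, and Col11a1 to 0, 0.306% and 0.816%. Chains that assemble into the same fibril thus differed in their coverage.

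Col11a2, whose chain joins Col11a1 in cartilage fibrils, was the fibrillar gene that differed most between genotypes. Its coverage was 48.1% in WT, 39.1% in mdx and 16.8% in mdxTLR4-/-. The peak over its start was present in all 3 lists (344, 278 and 285 reads), and the 2 peaks inside the gene that WT and mdx each had were not called in mdxTLR4-/-.

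Basement membrane and network collagens, which form sheets under epithelia and around vessels and muscle fibres, were of mixed state. Col4a1 and Col4a2, the chains found in nearly every basement membrane, are transcribed away from each other from starts 21 bp apart, so their windows share 10022 bp and 1 peak lay over both starts (34.2 kb and 1438 reads in WT, 30.4 kb and 1802 reads in mdx, 31.6 kb and 1431 reads in mdxTLR4-/-). Col4a1 was covered to 73.1%, 79.1% and 79.1%, and Col4a2 to 83.1%, 72.8% and 72.6%. Col4a3 and Col4a4, the chains of the kidney glomerulus, lung and inner ear, have starts 72 bp apart and were covered less, at 5.95%, 11.8% and 3.73% for Col4a3 and 1.25%, 1.38% and 0 for Col4a4. A short peak over their shared start contained 58 reads in the WT list (95% interval 44.0 to 75.0) and 86 in the mdx list (68.8 to 106) and was not called in mdxTLR4-/-. Col8a2, a network collagen of the cornea and of vessel walls, was covered to 93.1% in WT and 78.7% in both mdx and mdxTLR4-/-, while its partner Col8a1 stayed at 0.542%, 2.78% and 1.76%. Col10a1, the collagen of hypertrophic cartilage, had no H3K27me3 peak in any list.

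Type VI collagen forms the beaded filaments that anchor muscle fibres to their surroundings, and Col6a3 had the widest range of coverage over the 3 lists of any member (32.1 points), followed by Col11a2 (31.3). Col6a3, which encodes its longest chain, was covered to 55.9% in WT, 35.2% in mdx and 23.8% in mdxTLR4-/-. In WT the window touched 10 peaks, against 8 in mdx and 5 in mdxTLR4-/-, and 1 of them lay over the start in every list. The WT peaks that touched no mdx peak held 17.6, 16.2 and 21.3 reads per kb. The weakest peaks of a list (1st percentile of density) held 15.5 reads per kb in WT, 18.0 in mdx and 14.1 in mdxTLR4-/-. Peaks of the first 2 densities would thus lie under that level in mdx, and whether the mark itself differed there was not tested. Col6a1 was covered to 36.7%, 17.8% and 30.8%. In WT 1 peak of 11.6 kb ran across its start, in mdx the peak ended 0.83 kb upstream of the start, and in mdxTLR4-/- 3 short peaks lay on both sides of the start without covering it. Col6a2, its neighbour on chromosome 10, was covered to 32.5%, 35.5% and 13.6%, with a peak over the start in all 3 lists (129, 200 and 144 reads). The remaining chains were low. Col6a4 was covered to 12.4%, 2.82% and 0, Col6a5 to 2.35%, 3.08% and 5.43%, and Col6a6 to 7.52%, 3.14% and 7.24%. In WT the order of coverage was Col6a3, Col6a1 and Col6a2, in mdx it was Col6a2, Col6a3 and Col6a1, and in mdxTLR4-/- it was Col6a1, Col6a3 and Col6a2.

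Among the fibril-associated collagens, which decorate fibrils and link them to other matrix, coverage was high at Col9a2 (96.4%, 86.6% and 93.0%), Col16a1 (95.8%, 90.9% and 95.5%), Col9a3 (86.8%, 85.5% and 83.5%) and Col20a1 (71.3%, 69.2% and 65.5%). Col14a1, which binds fibrils in skin and tendon, was covered to 24.7%, 38.6% and 19.4%. Its window touched 12 WT peaks, 23 mdx peaks and 15 mdxTLR4-/- peaks, and the peak over its start held the most reads of any peak on the gene in each list (460, 596 and 347 reads). Col12a1 was covered to 8.45%, 8.45% and 7.18% and Col19a1 to 0.784%, 0.784% and 1.03%, with a peak over the start in every list, and Col9a1 and Col22a1 had no H3K27me3 peak in any list. Col9a1, Col9a2 and Col9a3 encode the chains of 1 protein, type IX collagen of cartilage, and only the last 2 were marked.

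Transmembrane collagens were covered to 80.0%, 76.7% and 74.5% at Col23a1, 62.5%, 70.8% and 60.8% at Col13a1, a collagen of the neuromuscular junction, 41.7%, 44.8% and 37.9% at Col17a1, the anchor of skin epithelium, and 7.13%, 12.8% and 7.99% at Col25a1. The multiplexins, whose tails can be cut off as free fragments such as endostatin from Col18a1, were covered to 49.7%, 61.6% and 44.9% at Col18a1 and 25.6%, 29.0% and 25.4% at Col15a1. Col26a1 (94.7%, 93.2% and 92.3%) and Col7a1, the anchoring fibril collagen of skin (90.8%, 89.8% and 87.6%), were covered in every list, and Col28a1 in none.

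Differences of coverage between genotypes were counted at a limit of 10 percentage points, which genes of low coverage can hardly reach. From WT to mdx, 4 of 42 genes were lower by 10 or more points (5.79% of all genes tested) and 2 were higher (5.04% of all genes), and the median change was 0. Among genes with H3K27me3 in any list, 11.1% of 36 collagens were lower against 12.5% of 9630 genes, and 5.56% were higher against 10.9%. The 4 lower genes were Col6a3 by −20.7 points, Col6a1 by −18.8, Col8a2 by −14.3 and Col4a2 by −10.2, and the 2 higher ones were Col14a1 by 14.0 and Col18a1 by 12.0 points. Under that limit, the next losses were those of Col9a2 (−9.75), Col6a4 (−9.53), Col11a2 (−9.02) and Col16a1 (−4.87), and the next gains those of Col13a1 (8.31), Col4a1 (5.98) and Col4a3 (5.81). Of these, Col13a1 turned to −11.7 and Col18a1 to −20.1 points when the lists were cut to an equal number of peaks by read density, Col14a1 to −14.0 points within 5 kb of the start, and Col6a3 to 12.6 points when only the denser peaks were kept. The difference of Col6a1 was 0 with the denser peaks, and those of Col8a2 and Col4a2 were 0 within 5 kb of the start. The count of 4 lower and 2 higher genes became 10 lower and 0 higher with lists of equal size.

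From mdx to mdxTLR4-/-, 6 of 42 genes were lower by 10 or more points (8.03% of all genes) and 1 was higher (2.60% of all genes). The lower genes were Col11a2 by −22.3 points, Col6a2 by −22.0, Col14a1 by −19.2, Col18a1 by −16.8, Col6a3 by −11.4 and Col13a1 by −10.003, and the higher one was Col6a1 by 13.0 points, followed by Col9a2 (6.38), Col16a1 (4.53), Col6a6 (4.10) and Col6a5 (2.35), which were under the limit. The split of 6 lower against 1 higher became 1 lower against 2 higher with lists of equal size, where Col13a1 and Col18a1 turned to 0.618 and 3.82 points and Col11a2, Col6a2 and Col6a3 came under the limit. Over the 6 other choices of peaks and window, Col11a2 kept 10 points in 3 (smallest change −8.00) and Col6a2 in 4 (−3.54). Within 5 kb of the start Col14a1 turned to 2.00 points and Col6a3 to 0.30, and with peaks of at least 2 kb Col6a1 turned to −0.719. From WT to mdxTLR4-/-, 6 genes were lower (8.82% of all genes) and 0 were higher (2.67% of all genes). These were Col6a3 (−32.1 points), Col11a2 (−31.3), Col6a2 (−18.9), Col8a2 (−14.3), Col6a4 (−12.4) and Col4a2 (−10.5). With only the denser peaks kept Col6a3 turned to 3.09 points and Col6a2 to 1.18, and within 5 kb of the start Col6a2 turned to 4.00. The count of 6 lower and 0 higher became 11 lower and 5 higher within 5 kb of the start, where the median change was 0. The differences of Col8a2 and Col4a2 were 0 within 5 kb of the start, and that of Col6a4 was 0 there and with the denser peaks, whereas Col11a2 kept 10 points in each of the 6 choices. The median change was −0.988 points from mdx to mdxTLR4-/- and −2.24 points from WT to mdxTLR4-/-, against 0 over all genes in both, most of which had no H3K27me3 in any list. Over the 36 collagens with the mark in any list the medians were −1.68 and −2.79 points, against −1.08 and −0.860 over the 9630 genes with it. Of these 9630 genes, 17.3% and 19.1% were lower by 10 or more points, against 16.7% of the 36 collagens in both comparisons. These comparisons share their lists, so their values are given side by side and are not independent of each other.

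**Figure D2:**
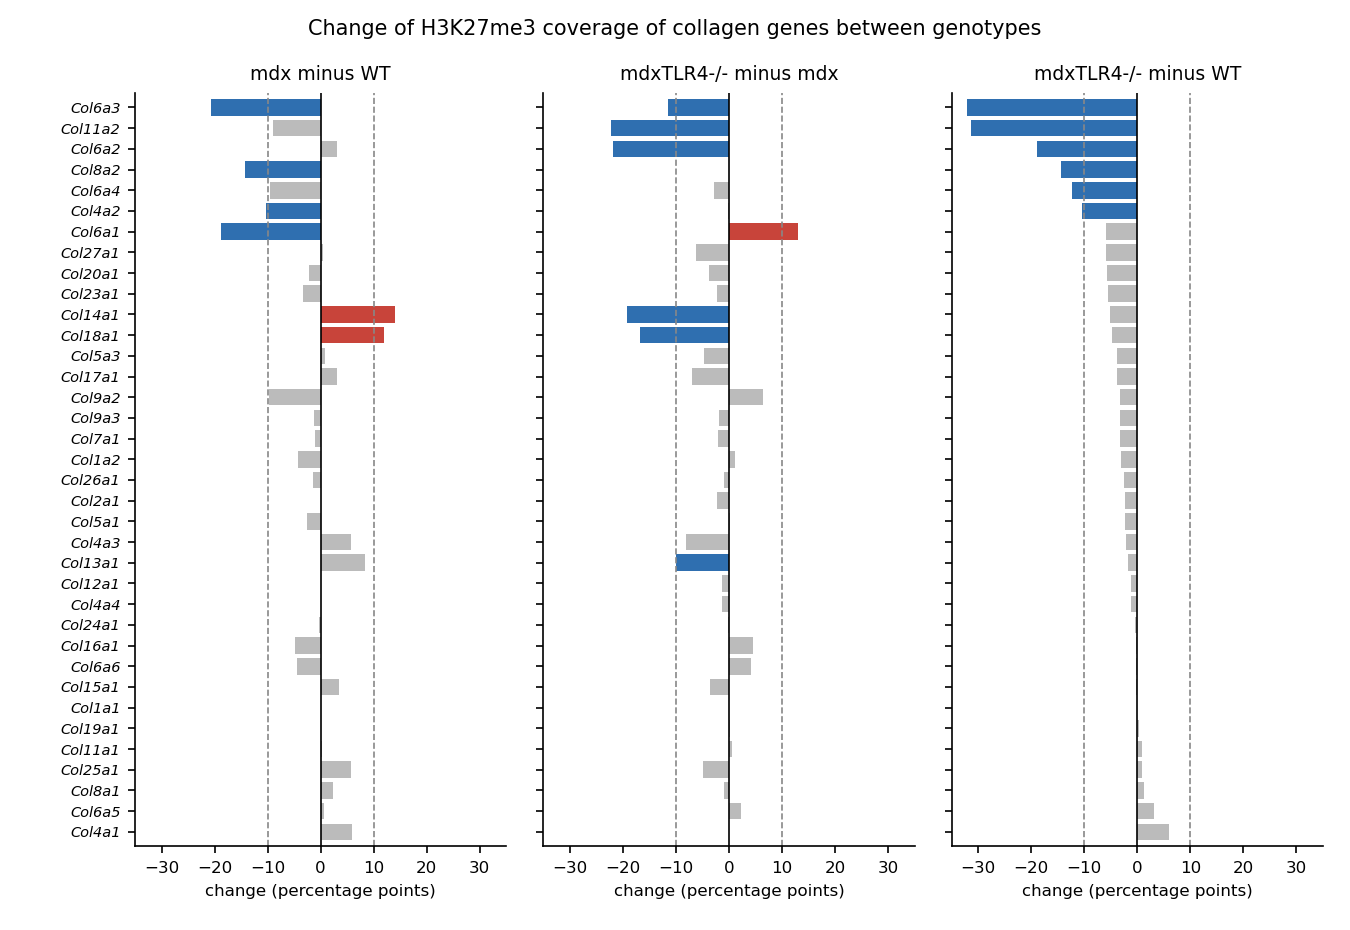
Change of H3K27me3 coverage in percentage points at the 36 collagen genes with the mark in any list, for mdx minus WT, mdxTLR4-/- minus mdx and mdxTLR4-/- minus WT. Dashed lines mark 10 points, and blue and red bars lie at or beyond them (4 and 2, 6 and 1, and 6 and 0 genes), while bars of the other genes are grey.

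Counted by any amount, coverage was lower in mdx than in WT for 17 of 42 genes (20.3% of all genes) and higher for 15 (19.5%). It was lower in mdxTLR4-/- than in mdx for 24 (26.9% of all genes) and higher for 9 (13.3%), and lower in mdxTLR4-/- than in WT for 29 (25.9%) and higher for 6 (12.8%). Of the 36 collagens with H3K27me3 in any list, 47.2% were lower from WT to mdx (43.8% of the 9630 genes with it) and 41.7% higher (42.05%), 66.7% were lower from mdx to mdxTLR4-/- (58.1%) and 9 of 36 higher (28.6%), and 80.6% were lower from WT to mdxTLR4-/- (56.0%) and 16.7% higher (27.7%). Collagen windows were longer (median 117 kb over all 42, against 27.4 kb over the 9630 genes). No share was taken over marked genes of like length, so the part of window length was not tested. Counts by any amount were not repeated with other choices of peaks and window.

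The study named a set of 8 collagens under collagen chain trimerization (Col7a1, Col27a1, Col5a1, Col23a1, Col16a1, Col14a1, Col26a1 and Col20a1). They were listed for a pattern of H3K27me3 reduced in mdx and restored in mdxTLR4-/-. The study defined this pattern by read intensity against input, which is a measure unlike coverage. The 8 genes were chosen on these libraries and are not independent evidence of that direction. Their median coverage was 88.1% in WT, 87.8% in mdx and 83.6% in mdxTLR4-/-, and from WT to mdx 0 were lower by 10 or more points (5.79% of all genes), 1 was higher (Col14a1, 5.04% of all genes) and 6 of 8 were lower by any amount (20.3% of all genes). From mdx to mdxTLR4-/- 6 of 8 were lower by any amount (26.9% of all genes), 1 of them by 10 or more points (Col14a1, 8.03%), and from WT to mdxTLR4-/- 8 of 8 were lower by any amount (25.9%) and 0 by 10 or more points (8.82%). All 8 had H3K27me3 in each list. Of the 9630 genes with it in any list, 43.8% were lower by any amount from WT to mdx. The shares were 58.1% from mdx to mdxTLR4-/- and 56.0% from WT to mdxTLR4-/-. Windows of the 8 collagens were long (median 137 kb, against 27.4 kb over the 9630 genes), and no share at like length was taken. The 7 collagens on the study's list of pro-fibrotic genes (Col1a1, Col1a2, Col3a1, Col5a1, Col6a1, Col6a2 and Col6a3) had a median coverage of 36.7%, 35.2% and 23.8%. By read intensity, the study reported a decrease over its pro-fibrotic list in mdx that was reversed in mdxTLR4-/-. In coverage, the median of neither set of collagens was higher in mdxTLR4-/- than in mdx. From WT to mdx 2 of the 7 were lower by 10 or more points (Col6a3 and Col6a1, 5.79% of all genes) and 0 higher (5.04%), and from mdx to mdxTLR4-/- 2 were lower (Col6a2 and Col6a3, 8.03%) and 1 higher (Col6a1, 2.60%). In both comparisons these calls were not stable. Col6a3 turned to 12.6 points and Col6a1 came to 0 from WT to mdx, and Col6a1 and Col6a3 turned from mdx to mdxTLR4-/-, under the choices given above.

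The domains over the most covered genes reached well past the genes themselves. The peak over Col1a1 was 121 kb long with 6053 reads in WT, 59.4 kb with 3489 reads in mdx and 78.6 kb with 3831 reads in mdxTLR4-/-, and spanned the whole gene in each. The longest peak on any collagen in WT was the one over the start of Col5a1, with 137.4 kb and 6069 reads, the 35th longest of 28143 peaks. In mdx the longest was a peak of 173.4 kb at Col20a1, and in mdxTLR4-/- a peak of 111 kb at Col16a1. The 5 kb upstream of the gene was wholly covered in all 3 genotypes for 10 genes (Col15a1, Col1a1, Col26a1, Col27a1, Col2a1, Col4a1, Col4a2, Col5a1, Col5a3 and Col8a2). At the other end, Col12a1, Col19a1, Col1a2, Col24a1 and Col6a5 had the mark over the start in all 3 lists while less than 20% of the window was covered. The peak over the start had a median length of 15.3 kb over 30 genes in WT, 8.7 kb over 30 in mdx and 17.6 kb over 29 in mdxTLR4-/-. These medians are over partly different genes, of which 26 had the start covered in all 3 lists. Col25a1 and Col8a1 had a short peak over the start in mdx (3 and 1.6 kb) and none in WT. Col23a1 and Col6a1 had one in WT (8.2 and 11.6 kb) and none in mdx. The medians therefore do not give a change of length at the same genes.

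**Figure D3:**
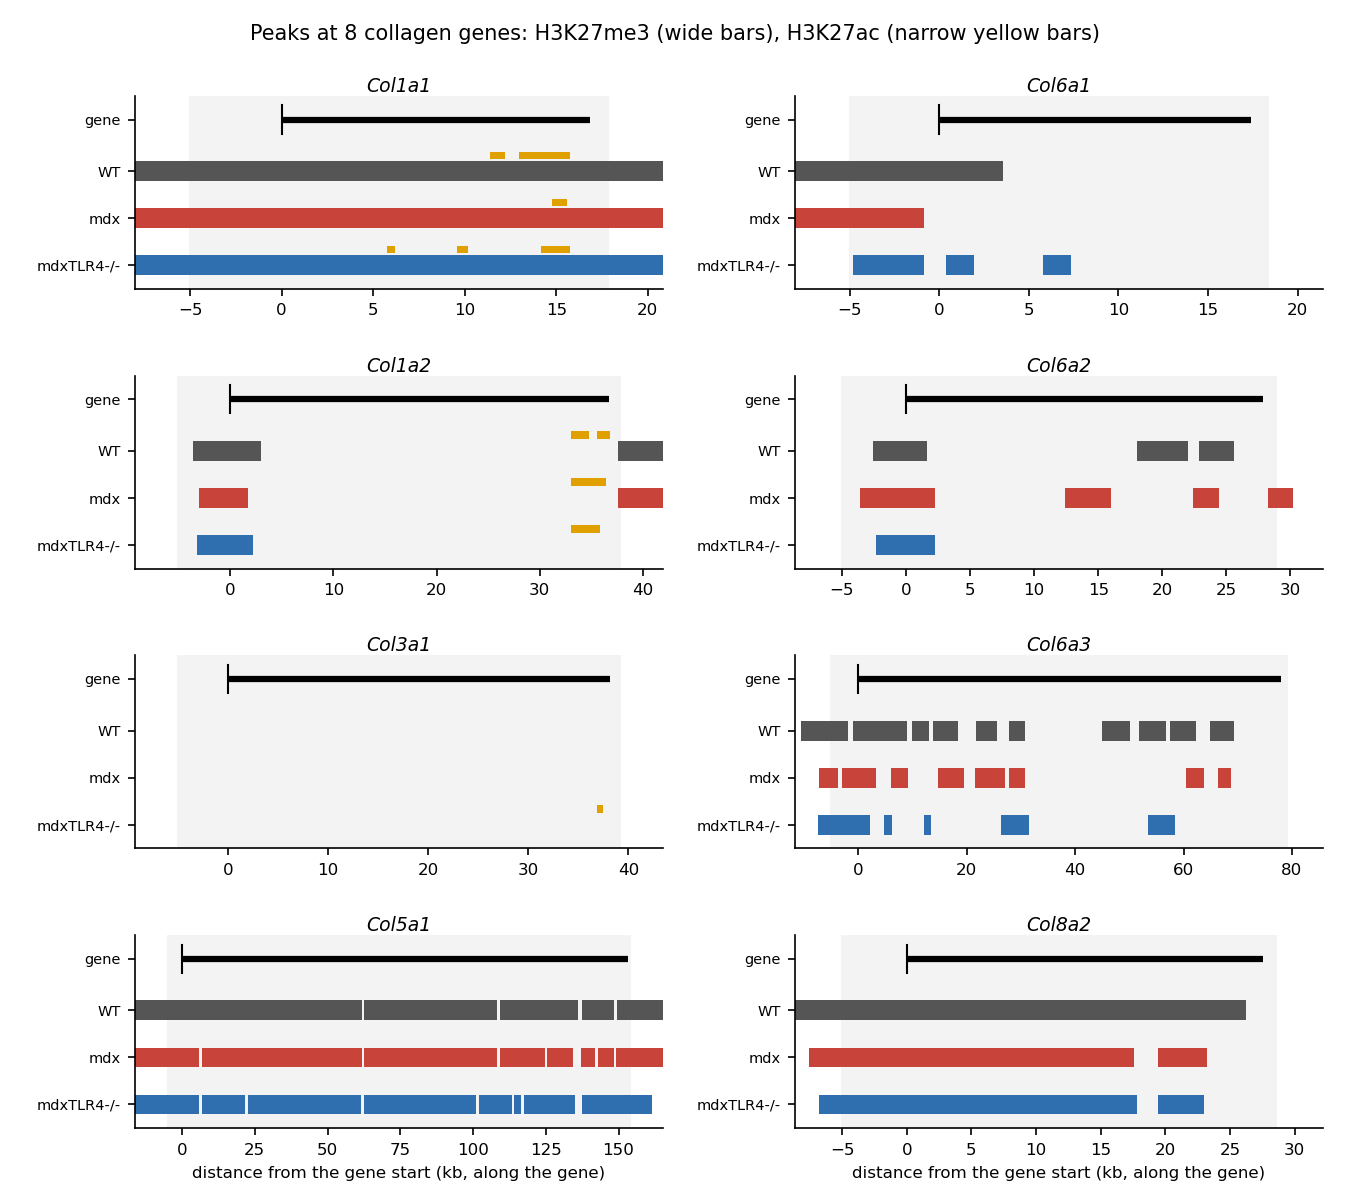
Peaks at 8 collagen genes by distance in kb from the gene start, with H3K27me3 as wide bars and H3K27ac as narrow yellow bars, 1 row per genotype, the gene as a black line with a tick at its start and the window in grey. Bars that run past a panel are cut at its edge, such as those of Col1a1, Col3a1 has no H3K27me3 bar, and at Col6a3 there are 10, 8 and 5 bars.

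Some peaks on collagens touched no peak of another list. With a peak shared by neighbouring genes counted once, 52 of 213 peaks in mdx touched none in WT (29% of all peaks of that list), and these had a median of 2200 bp and 25.7 reads per kb, against 4000 bp and 30.5 reads per kb over all 213. Of 146 peaks in WT, 12 touched none in mdx (8.81% of all peaks), with a median of 4700 bp and 18.7 reads per kb against 6100 bp over all 146, and 27 touched none in mdxTLR4-/- (17.2% of all peaks), with 21.1 reads per kb. In mdx 55 of 213 touched none in mdxTLR4-/- (29.6% of all peaks). Of 167 peaks in mdxTLR4-/-, 16 touched none in mdx (12.1% of all peaks) and 25 none in WT (20.6%).

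Read density inside the peaks, in ChIP reads per kb, moved in the same way over collagens as over all genes. Without scaling, the median ratio of mdx to WT was 1.18 over 35 collagens (95% interval of the median 1.145 to 1.215) and 1.20 over all genes, and that of mdxTLR4-/- to mdx was 0.809 (0.782 to 0.856) over 34 collagens and 0.812 over all genes. Scaled to the total reads in peaks of each list, these became 0.962 and 1.12 over collagens, on the other side of 1, and 0.982 and 1.13 over all genes. A direction for density therefore depended on the scaling, and the difference between collagens and all genes was small under each. At Col6a3 the peaks together counted 1032 reads (19.6 per kb) in WT, 798 (25.1 per kb) in mdx and 447 (20.0 per kb) in mdxTLR4-/-, so the density without scaling was higher in mdx where less of the gene was covered.

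Base composition went along with coverage, a feature that the choice of genes did not use. The GC content of the window ran from 48.0% to 54.6% (median 51.2%) in the 16 genes covered to at least 50% in all 3 lists, from 35.3% to 45.2% (median 41.2%) in the 12 genes below 20% with any peak, and from 35.9% to 44.3% (median 40.4%) in the 6 genes with none. The first range overlapped neither that of the 12 nor that of the 6 genes. The 8 genes between ran from 41.7% (Col14a1) to 55.9% (Col11a2) and overlapped all 3 ranges. These groups were formed by coverage itself, and GC content by such groups was not taken over all genes. The median window GC content was 48.1% over collagens, 45.0% over all genes and 47.0% over the 9630 genes with H3K27me3 in any list. Over the 42 genes in WT, coverage and GC content had a Pearson r of 0.838 and a Spearman rho of 0.844, against 0.429 and 0.422 over all 20807 genes. This is a correlation across genes of 1 list, in which the members of each head-to-head pair share part of a window, and genes are not independent replicates. GC content can also affect how well fragments are amplified and mapped, and its part in these values was not tested. Covered genes were also shorter (median window 54.2 kb, against 143 kb in the 12 genes and 108 kb in the 6).

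**Figure D4:**
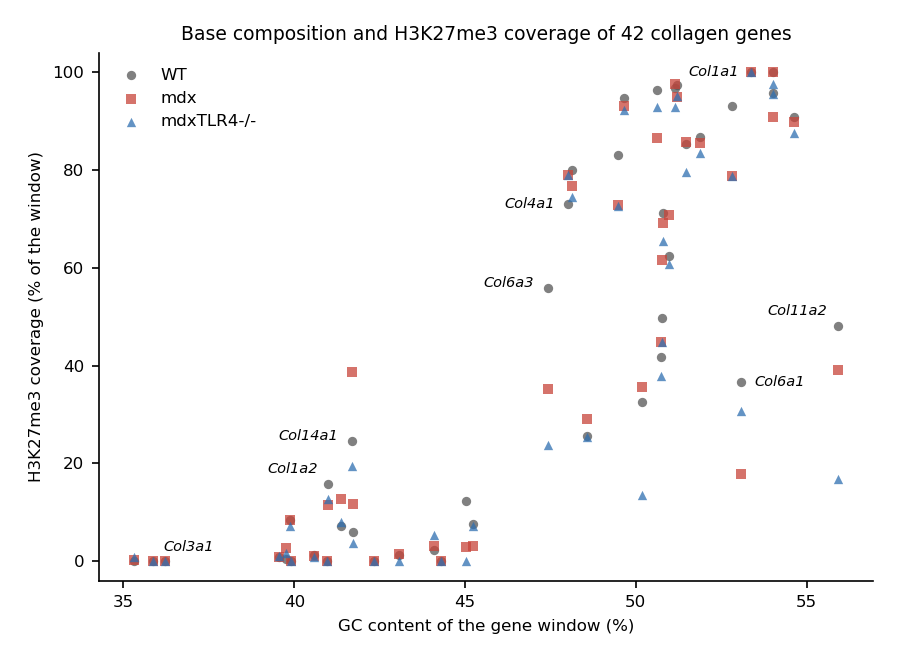
H3K27me3 coverage (percent of the window) against GC content of the window (percent) for the 42 collagen genes, with 1 point per gene and genotype. Genes up to 45.2% GC lie at or below 38.6% (Col14a1 in mdx), and genes from 48.0% GC upward range from 13.6% (Col6a2 in mdxTLR4-/-) to 100%.

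At the starts themselves the number of CG dinucleotides differed between marked and unmarked members, with overlapping ranges. The RefSeq table held a promoter, from 250 bases before to 50 after the start, for 32 members, and none near the GENCODE start for Col12a1, Col14a1, Col1a1, Col22a1, Col25a1, Col26a1, Col2a1, Col4a3, Col5a2 and Col9a3. The median number of CG in these 300 bases was 16 (range 3 to 37) in the 20 members with H3K27me3 over the start in all 3 lists, 12 in the 5 with it in some lists, and 1 (range 0 to 14) in the 7 with it in none. Over all genes with a promoter in the table, the medians were 14 with H3K27me3 over the start in all 3 lists (2890 genes) and 18 without it (10021 genes), but 7 in the 4252 genes with neither H3K27me3 over the start nor H3K27ac within 5 kb. The motif GGGCGG, read on both strands and overlapping the CG count, was in 70.0% of the 20 members marked in all lists, 60.0% of the 5 marked in some and 28.6% of the 7 unmarked members. Over all genes it was in 53.0% of promoters with H3K27me3 over the start in all 3 lists and 53.0% of those without it, but in 36.7% of the 4252 with neither H3K27me3 over the start nor H3K27ac within 5 kb (52.2% of all promoters). TATAAA, read on both strands, was in 5 of 32 members (Col10a1, Col11a2, Col13a1, Col17a1 and Col3a1) and in 11.4% of all promoters, and CCAAT, read on both strands, in 31.2% and 38.3%.

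H3K27ac was almost absent from the starts of collagen genes. A peak within 5 kb of the gene start was called for 0 of 42 members in WT (32.9% of all genes), 1 of 42 in mdx (28.3%) and 0 of 42 in mdxTLR4-/- (30.4%). The 1 gene was Col26a1 in mdx, whose peak of 6 reads (95% interval 2.20 to 13.1) lay from 4.19 to 5.19 kb upstream of the start, inside H3K27me3 that covered 93.2% of the window. It was lost when only peaks within 1 kb or of at least 10 reads were counted. When the start of any protein-coding transcript was taken, Col15a1 was added in WT (35.1% of all genes) and in mdxTLR4-/- (32.5%), and Col26a1 stayed the only one in mdx (30.1%).

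The genes that mark macrophages gave the opposite picture in the same lists. Of 10 macrophage markers, 9 had H3K27ac at the start in WT, 8 in mdx and 9 in mdxTLR4-/-, none had H3K27me3 over the start, and Cx3cr1 was the only one with any H3K27me3 in the window (12.6%, 9.76% and 7.57%). Spi1, the transcription factor that defines the lineage, and Adgre1, Cd68, Lyz2 and Mertk were acetylated at the start in all 3 lists, while Csf1r was not in mdx. Of 10 fibroblast and stromal markers, 0 had H3K27ac at the start in any list and 6 had H3K27me3 over it, led by Twist2 (98.5%, 90.5% and 78.8% of the window) and Thy1 (85.6%, 82.0% and 87.3%). Dcn, Dpt, Fap and Lum had no H3K27me3 in the window and no H3K27ac at the start in any list, and the same held for Col3a1 and Col5a2. Among endothelial markers, Pecam1, which macrophages also express, had H3K27ac at the start in all 3 lists, and Cdh5 was covered to 31.9%, 11.0% and 28.0% and Kdr to 16.3%, 4.65% and 11.2%, while Tek was at 0, 1.13% and 1.41%. The lymphocyte markers Cd3e (100% in each list) and Pax5 (67.8%, 77.5% and 62.9%) were covered, Lck less so (23.6%, 32.0% and 30.0%), and none of these 3 had H3K27ac at the start. Of the 4 neutrophil markers, Mpo was covered to 71.3%, 65.3% and 63.0%, Elane had no H3K27me3 in the window and no H3K27ac at the start, S100a8 had H3K27me3 in mdx alone (19.8%), and Cebpe had 21.0% coverage and H3K27ac at the start in WT alone. Tlr4 itself had no H3K27me3 peak in its window and 1 H3K27ac peak with 44, 29 and 28 reads, and these marks do not check the deletion.

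**Figure D5:**
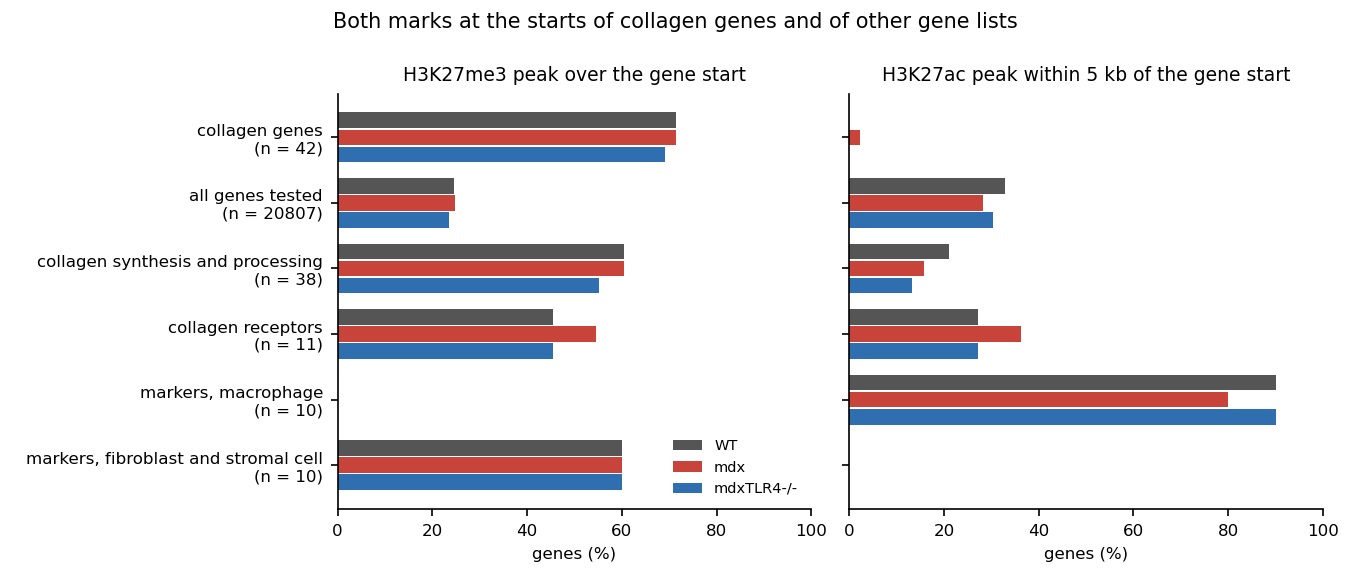
Percent of genes with an H3K27me3 peak over the start (left) and with an H3K27ac peak within 5 kb of the start (right), for collagen genes, all genes tested, the lists of collagen synthesis and receptors and markers of macrophages and fibroblasts, with 1 bar per genotype. Collagen genes reach 71.4%, 71.4% and 69.0% on the left and 0, 2.38% and 0 on the right, and macrophage markers the reverse.

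Inside the genes H3K27ac was infrequent. Anywhere in the window it was found at 7 of 42 members in WT (41.0% of all genes), 7 in mdx (35.6%) and 9 in mdxTLR4-/- (37.7%), in 12, 9 and 15 peaks of 5 to 34 reads (medians of 9, 7 and 6 reads, against 10, 10 and 8 over all H3K27ac peaks). Col1a1, Col1a2, Col23a1 and Col25a1 had it in all 3 lists. At Col1a1 the longest peak lay from 13.0 to 15.8 kb downstream of the start in WT, over 8 exons including the last, with 34 reads (95% interval 23.6 to 47.5). In mdx 1 peak of 800 bp held 7 reads (2.81 to 14.4), and in mdxTLR4-/- the peak over the same end held 19 reads (11.4 to 29.7). Per 1000000 reads in peaks, the H3K27ac peaks on Col1a1 came to 150 (107 to 203) in WT, 36.5 (14.7 to 75.3) in mdx and 178 (120 to 254) in mdxTLR4-/-. These are sums over peaks called separately in each list, whose length was 3600, 800 and 2600 bp, and the intervals cover counting error only. At Col1a2 the peaks covered the last exons, with 23, 13 and 22 reads in that order (83.9, 67.8 and 131 on the scaled basis).

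Acetylation at the ends of type I collagen genes stood out in these values, and the count that follows was added after they had been seen. Among all genes of at least 15 kb, a peak in the last 5 kb with none at the start was counted. It was found for 3 of 41 members in WT (Col1a1, Col1a2 and Col23a1, 1.94% of all genes of that length), 2 in mdx (Col1a1 and Col1a2, 1.52%) and 3 in mdxTLR4-/- (Col1a1, Col1a2 and Col3a1, 1.68%). Genes with H3K27ac at the start stayed in these totals although they could not be counted. Of all genes of any length, 32.9%, 28.3% and 30.4% had it there. Among members only Col26a1 in mdx did, so the shares over all genes were lowered more. At Col23a1 the peak lay within 1 kb of the start of the neighbouring gene Phykpl. At Col3a1 it held 8 reads (3.45 to 15.8), lay over the last exon and was called in mdxTLR4-/- alone. At Col1a1 H3K27me3 covered the same bases. An H3K27ac peak overlapped H3K27me3 of the same genotype for 2 of 12 collagen peaks in WT (2.27% of all H3K27ac peaks), both on Col1a1, 4 of 9 in mdx (1.91%), on Col1a1, Col25a1, Col26a1 and Col4a1, and 3 of 15 in mdxTLR4-/- (1.66%), all on Col1a1. The lists do not say whether both marks were on the same alleles or cells.

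The enzymes and helpers that make and process collagen were of mixed state. Of 38 genes on this list, 15 in WT (17.5% of all genes), 15 in mdx (17.1%) and 14 in mdxTLR4-/- (15.6%) were covered to at least 50%, and 8 (32.9% of all genes), 6 (28.3%) and 5 (30.4%) had H3K27ac at the start. P4hb and Ppib, which serve secreted proteins in general, the lysyl hydroxylase Plod3 and the export gene Sec23a were acetylated at the start in all 3 lists. Of those that act mainly on collagen, some were under H3K27me3, among them the collagen chaperone Serpinh1 (100%, 95.4% and 100%), the cross-linking enzyme Loxl1 (100% in each list), the prolyl hydroxylase P4ha2 (89.6%, 88.0% and 86.9%) and Bmp1, which cuts the propeptide (84.1%, 85.3% and 86.5%). Others, among them the prolyl hydroxylase P4ha1, the lysyl hydroxylases Plod1 and Plod3, the cross-linking enzyme Loxl3 and Crtap, a partner in prolyl hydroxylation, had none in any list. From WT to mdx 5 of the 38 were lower by 10 or more points (5.79% of all genes) and 2 higher (5.04%). The lower ones were Loxl2 (68.3%, 35.5% and 48.7% in WT, mdx and mdxTLR4-/-), Ppib (11.5%, 0.185% and 1.798%), Lox (31.3%, 20.2% and 19.2%), Loxl4 (79.8%, 69.3% and 75.8%) and the matrix adaptor Sparc (72.6%, 62.2% and 64.0%), with the adaptor Tnxb just under the limit (98.6%, 88.8% and 92.8%). The higher ones were Fbln1 (57.5%, 74.8% and 57.5%) and the propeptidase Adamts2 (40.5%, 54.1% and 46.6%). From mdx to mdxTLR4-/- 1 gene was lower (Fbln1, 8.03% of all genes) and 1 higher (Loxl2, 2.60% of all genes). Differences on this list were not recomputed with other choices of peaks and window, under which many calls at the collagens moved.

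Collagen receptors were also of mixed state. Itgb1, the shared integrin chain, the inhibitory receptor Lair1 and the scavenger receptor Mrc1, all known in macrophages, had H3K27ac at the start and no H3K27me3 in each list. The receptor kinase Ddr1 was covered to 100% in each list, Itga11, an integrin chain of fibroblasts, to 84.3%, 85.6% and 82.9%, the platelet receptor Gp6 to 67.3%, 75.4% and 60.8%, and the uptake receptor Mrc2 to 75.3%, 61.6% and 63.2%. Of the 11 receptors, Mrc2 was lower by 10 or more points from WT to mdx (5.79% of all genes) and Gp6 from mdx to mdxTLR4-/- (8.03%), and none was higher by that much in either comparison. These differences, too, were not recomputed with other choices of peaks and window. Itga1 had H3K27ac at the start in mdx alone.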

How the data were processed

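Native chromatin of BMDM was cut with micrococcal nuclease, immunoprecipitated for H3K27me3 or H3K27ac and sequenced. The authors mapped reads to mm10, merged replicates and called peaks with SICER2 (window 200 bp, gap 600 bp, false discovery rate 0.01). The submitters' processing notes name Bowtie2 2.3.4, cutadapt 1.15, CASAVA 1.8 and SICER 2.0. Removal of duplicates is not given in the sources used here. The deposited lists give, for each peak, a whole-number count of ChIP reads, neither scaled nor corrected for input. The 6 lists (2 marks, 3 genotypes) were grouped by the labels of their libraries, and mTLR4 in the labels was read as mdxTLR4-/-.

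The collagen genes, the other lists and the limits were chosen with earlier results of these data known. Windows came from GENCODE vM21. A gene was counted as covered at 50% and as different at 10 percentage points, an overlap needed 1 bp, and H3K27ac was sought within 5 kb of the start. With 1 merged list per genotype no test was made. Intervals at 95% are exact Poisson limits of counts, those of a median ratio use order statistics, and both cover counting error or spread between genes, not spread between animals. Genes were named by rule: the 8 largest losses and 5 largest gains of coverage from WT to mdx, 5 of each from mdx to mdxTLR4-/-, members with H3K27ac at the start, members with no H3K27me3, members with overlapping windows and the main fibrillar, type IV and type VI chains, and up to 8 genes of each other list. Other members, and the genes beyond 8 in the synthesis list and beyond the rule in the receptor and marker lists, are named for completeness, after their values were seen. The result for 1 cell type marker is not reported here. The code that measures coverage, joins peaks and finds the peaks touching a window was tested on simulated peaks, and the code for the 95% intervals was not. Python 3.11.15, numpy 2.4.6, pandas 2.3.3, scipy 1.17.1 and matplotlib 3.10.9 were used.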

Additional observations from a re-analysis of the deposited data

How the results depend on the processing

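Alternatives were tried for the peaks kept, the window, the limits and the scaling. The genes of the synthesis, receptor and marker lists were not recomputed under them. The number of collagen genes covered to the limit stayed within 1.5 times its main value, with the exception of the window of 5 kb on both sides of the start (25 genes in mdxTLR4-/-). Differences between genotypes were less stable. With lists cut to an equal number of peaks by read density, 10 genes were lower and 0 higher from WT to mdx, and 1 lower and 2 higher from mdx to mdxTLR4-/-. Col18a1 then turned to −20.1 points from WT to mdx and 3.82 from mdx to mdxTLR4-/-, and Col13a1 to 0.618. With peaks of at least 1.5 times the 1st percentile of density, 1 gene was higher from WT to mdx and 1 lower from mdx to mdxTLR4-/-. Col18a1 turned to −7.81 and 3.16 points, Col13a1 to 2.00 from mdx to mdxTLR4-/-, Col6a3 to 12.6 from WT to mdx and 3.09 from WT to mdxTLR4-/-, and Col6a2 to 1.18 from WT to mdxTLR4-/-. Within 5 kb of the start, 7 genes were lower and 4 higher from WT to mdx, 5 higher from mdx to mdxTLR4-/-, and 11 lower and 5 higher from WT to mdxTLR4-/- with a median change of 0. There Col14a1 turned to −14.0 and 2.00 points, Col18a1 to −8.00 and 2.00, Col6a3 to 0.30 from mdx to mdxTLR4-/- and Col6a2 to 4.00 from WT to mdxTLR4-/-. With peaks of at least 2 kb, 0 genes were higher from mdx to mdxTLR4-/- and Col6a1 turned to −0.719. A limit of 5 points gave 7 lower and 6 higher from WT to mdx, 2 higher from mdx to mdxTLR4-/-, and 11 lower and 1 higher from WT to mdxTLR4-/-. A limit of 20 points gave 1 lower and 0 higher, 2 lower and 0 higher, and 2 lower. H3K27ac at the start was found for 0 genes in mdx within 1 kb or with peaks of at least 10 reads, and for 1 gene in WT and 1 in mdxTLR4-/- at the start of any transcript. The median ratio of read density over collagens was 0.962 (WT to mdx), 1.12 (mdx to mdxTLR4-/-) and 1.11 (WT to mdxTLR4-/-) after scaling to the total reads in peaks, and 1.01, 1.03 and 1.07 relative to the 1st percentile. The cause of these shifts was not tested. Of the values outside the main results, which were changes at single genes and shares over all genes, 76 others moved and 682 did not. Among these moves the called differences of Col6a1 (WT to mdx), Col6a4 (WT to mdxTLR4-/-) and Col8a2 and Col4a2 (both) came to 0 in at least 1 setting. Differences under 10 points turned sign in 36 of 642 values, 9 of them to 10 points or more. No paired analysis was possible because the replicates had been merged ahead of peak calling, and no library could be left out for the same reason. The H3K27ac lists, with a median of 8 to 10 reads per peak, limit what can be said of weak sites.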
